A study of Mus musculus with 12 samples.

Results

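The 6 conventional actin genes of the mouse, Actb, Actg1, Acta2, Actg2, Acta1 and Actc1, were followed through 12 RNA-seq libraries of NIH 3T3 cells. They were matched by gene symbol, a rule that uses no measured value although earlier results of these data were known when it was set, and are 6 of the 49671 genes listed for every library. NIH 3T3 is an immortalized line of mouse embryo fibroblasts. Cells received a non-targeting control siRNA or a siRNA against Tmpo that depletes all isoforms of Lap2 (lamina-associated polypeptide 2), the nucleoplasmic α form and the membrane-anchored forms alike. With each siRNA, cells were left overnight in 0.3% FBS (serum-starved) or were then given 15% FBS for 45 min (serum-stimulated), with 3 libraries for each of the 4 groups. Every cell was therefore transfected and starved, and no untransfected or unstarved cells are among the 12 libraries. The labels number the libraries from 1 to 12, and replicates 1 to 3 are named here by that order within each group. The study's methods speak of RNA from triplicate samples but do not say whether these were separate cultures, so p-values measure the spread between these libraries, which may be technical.

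Actin is the protein of the microfilaments, and mammals make it from 6 genes whose proteins are almost identical. Actb and Actg1 encode the cytoplasmic β- and γ-actin found in most cells, Acta2 and Actg2 the α- and γ-actin of smooth muscle, and Acta1 and Actc1 the α-actin of skeletal and of cardiac muscle. Actin genes are known targets of SRF (serum response factor), which binds the CArG box, and of its coactivator MRTF-A, which is held inactive by binding monomeric actin and is released when serum drives actin into filaments. The study asked how loss of Lap2 alters this response.

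The stretch of promoter with the CArG box is shown for the 4 members found in the RefSeq promoter table (GRCm38.p6, minus strand, 5′ to 3′), because this box is the site that SRF reads. Capitals mark the box. Acta1 is shown from chr8:123894829-123894858, Acta2 from chr19:34255438-34255467, Actg1 from chr11:120348566-120348595 and Actc1 from chr2:114052903-114052932.
Acta1: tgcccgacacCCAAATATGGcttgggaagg
Acta2: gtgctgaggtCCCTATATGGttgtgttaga
Actg1: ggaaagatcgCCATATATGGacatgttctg
Actc1: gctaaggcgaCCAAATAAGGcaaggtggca
The boxes of Acta1, Actg1 and Actc1 matched the CArG consensus exactly and lay at -73 to -64, at -90 to -81 and at -47 to -38 from the RefSeq start. Acta2 held no exact match in the 250 bases before its start. The box shown for it, at -84 to -75, had 1 mismatch, and another of the same kind lay at -34 to -25. RefSeq starts differ here from the gene ends of the GENCODE M21 annotation. The boxes shown for Acta2 and Actc1 lie inside the GENCODE M21 spans, which reach chr19:34255590 and chr2:114053548. Among all 32851 promoter windows of the table, an exact box on either strand was found in 1.47% and a box with up to 1 mismatch in 18.6%. The word TATAAA, searched on both strands, was found before the start of Acta1 and of none of the other 3, against 12.4% of all windows. The promoters of Actb and Actg2 were not printed. A match of letters is a description and does not show binding in these cells.

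**Figure D1:**
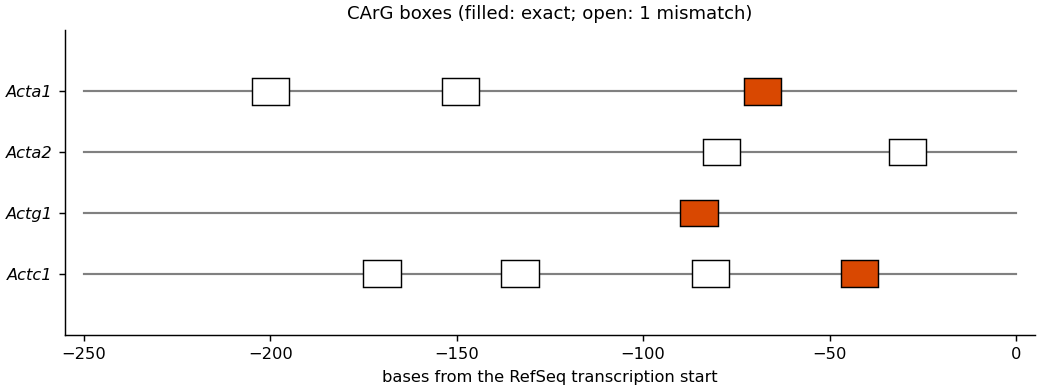
Positions of CArG boxes in the 250 bases before the RefSeq start of 4 actin genes, in bases from the start. Filled boxes match exactly (1 each in Acta1, Actg1 and Actc1) and open boxes have 1 mismatch (the 2 of Acta2 are both of this kind).

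The last 60 bases of each coding sequence, with the stop codon (GENCODE M21), are shown because they let a reader see how closely the members resemble each other and by what their reads are told apart. Capitals mark bases that differ from Actb.
Actb: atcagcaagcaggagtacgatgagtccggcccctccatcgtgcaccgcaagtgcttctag
Actg1: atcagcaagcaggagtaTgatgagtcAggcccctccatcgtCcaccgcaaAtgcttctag
Acta2: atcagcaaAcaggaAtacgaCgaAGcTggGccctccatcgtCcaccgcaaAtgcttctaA
Actg2: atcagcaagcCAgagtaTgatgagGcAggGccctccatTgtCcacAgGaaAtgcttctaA
Acta1: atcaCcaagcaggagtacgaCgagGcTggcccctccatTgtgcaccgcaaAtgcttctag
Actc1: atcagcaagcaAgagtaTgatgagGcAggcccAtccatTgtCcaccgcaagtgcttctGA
Actg1 differed from Actb at 4 of these 60 bases, Acta1 at 6, Actc1 at 9, Acta2 at 10 and Actg2 at 12. Over the whole coding sequence, identity between members ran from 81.9% (Acta2 with Actg1, and Actg1 with Actc1) to 88.7% (Actb with Actg1). Few words of 50 bases in a member's transcript were found in another actin gene, at most 2.57% (Actb). Nearly every stretch of this length thus told the members apart from each other, whereas Actg1 shared 56.7% of its 50-base words with another gene, mostly actin pseudogenes. The processed pseudogene Gm12715 (chr4:103563402-103564529) alone held 973 of the 1903 words of Actg1. Gm12715 had counts equal to 1.95% to 2.83% of those of Actg1 in each library, with 498 the lowest and 2858 the highest count. How reads that fit several places were counted is not given in the sources used here, so the levels of Actg1 are less certain than those of the other members. Adding the counts of pseudogenes to those of their actin gene, an alternative chosen after seeing the data, moved no member across the threshold in any comparison. It added 17530 counts to the 693451 of Actg1, 2 to Acta1 and 0 to Actb. Reads left out of counting would be in neither gene, so this alternative cannot settle how they affect the levels. For Actb the words shared with Lrrc58 (179 of 1871) were the largest part. Lrrc58 is a protein-coding gene, and its counts were not added.

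All members lie on the minus strand of mm10. Actb (ENSMUSG00000029580) is at chr5:142903115-142906754, Actg1 (ENSMUSG00000062825) at chr11:120345690-120348542, Acta2 (ENSMUSG00000035783) at chr19:34241090-34255336, Actg2 (ENSMUSG00000059430) at chr6:83512905-83536265, Acta1 (ENSMUSG00000031972) at chr8:123891769-123894751 and Actc1 (ENSMUSG00000068614) at chr2:114047282-114053548. The libraries are directional, but whether counting used the strand is not given in the sources used here. Acta1 and Actc1 each overlap a gene of the other strand (Gm20388 and A530058N18Rik), without shared exonic bases and with 0 counts in all libraries.

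Total counts ranged from 18026298 to 26265253 per library. A filter of more than 1 count in at least 3 libraries left 18668 genes, with 5 of the 6 members among them; Actc1 was left out. Counts were scaled by TMM and tested with edgeR's quasi-likelihood test over all 18668 genes, with Benjamini-Hochberg adjustment (threshold 0.05). Normalized counts are counts after this scaling, on the scale of an average library. With TMM the median log2 fold change of all genes lay between -0.0090 and 0.0199 in the 5 comparisons. With scaling to total counts it was -0.215 and -0.226 for serum (control and Lap2 siRNA) and 0.117 and 0.103 for Lap2 siRNA (0.3% and 15% FBS). Tmpo had 2775 to 3264 normalized counts in the 6 control libraries and 607 to 1176 in the 6 with Lap2 siRNA. The labels and the siRNA target thus matched in every library. The depletion differed between the media, with mean Tmpo at 38.4% of control in 0.3% FBS and at 22.2% in 15% FBS.

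The fibroblast label was checked with 9 markers, all of which passed the filter. Their summed level was 39542 to 40883 CPM (counts relative to the TMM-scaled library size) in starved and 41179 to 45194 in stimulated control cells, and 24375 to 29459 and 29362 to 32763 CPM with Lap2 siRNA. In both media this level was lower after Lap2 depletion, also in 0.3% FBS, where Actb and Actg1 did not pass the test described below. Its part in the actin differences was not tested. Of 10 skeletal muscle markers, Myod1, Myog, Myf5 and Ckm had 0 counts in every library and the list summed to 3.40 to 9.94 CPM. Of 10 cardiac markers, Myh6 and Myh7 had 0 counts. The cardiac list summed to 9.16 to 12.4 CPM in starved and 59.0 to 68.2 in stimulated control cells, and to 12.1 to 13.4 and 23.8 to 29.0 CPM with Lap2 siRNA, with Nkx2-5 (mean 14.2 CPM) and Nppb (12.4) as its main genes. The 10 smooth muscle markers, which include Actg2, summed to 214 to 228 and 452 to 491 CPM in control cells and to 303 to 336 and 342 to 399 with Lap2 siRNA, with Ptgs1 (mean 149 CPM), Smtn (104), Lmod1 (48.0), Mylk (16.0) and Synpo2 (8.55) as its main genes beside Actg2. Myh11, Des, Myocd and Kcnmb1 had means of at most 0.352 CPM. The epithelial, endothelial and immune lists each summed to at most 2.56 CPM.

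Compared per length, as RPKM (the same CPM per kilobase of exon), the members kept a single order in all 4 groups, from Actb over Actg1, Acta2, Actg2 and Acta1 to Actc1. The order of Actb and Actg1 is less certain than the rest. Of their 50-base words, 14.2% (Actb) and 56.7% (Actg1) were shared with another gene, and how such reads were counted is not given. In starved control cells the mean RPKM was 860 ± 29.0 (SD, n = 3) for Actb, 485 ± 13.4 for Actg1, 149 ± 24.1 for Acta2, 4.56 ± 1.19 for Actg2 and 0.0634 ± 0.0604 for Acta1. In stimulated control cells it was 2501 ± 34.2 for Actb, 1772 ± 11.8 for Actg1, 882 ± 11.8 for Acta2, 34.2 ± 1.97 for Actg2 and 9.18 ± 1.65 for Acta1. A 45 min exposure to serum thus brought Acta2, the smooth muscle α-actin, to 882 RPKM, against 860 for Actb in starved control cells. How close these 2 values lie depends on the length used. By the length of the longest coding transcript they were 952 and 1200.5. With Lap2 siRNA the RPKM in 0.3% FBS was 809 ± 16.9 for Actb, 454 ± 31.1 for Actg1, 68.5 ± 3.90 for Acta2, 1.38 ± 0.248 for Actg2 and 0.130 ± 0.0873 for Acta1. With Lap2 siRNA in 15% FBS it was 1929 ± 34.0, 1444 ± 12.3, 266 ± 3.85, 8.32 ± 0.846 and 2.39 ± 0.724 in the same order of genes. The values of neighbours in this order did not overlap in any group, except that Acta1 in 0.3% FBS could not be set apart from Actc1. Actc1 had 0 counts in 12 of 12 libraries. A count of 0 allows up to 3 counts, or 0.123 to 0.164 CPM in a library and at most 0.102 RPKM, a range that holds some of the starved Acta1 values (0.0267 to 0.198 RPKM). These limits cover counting error only.

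**Figure D2:**
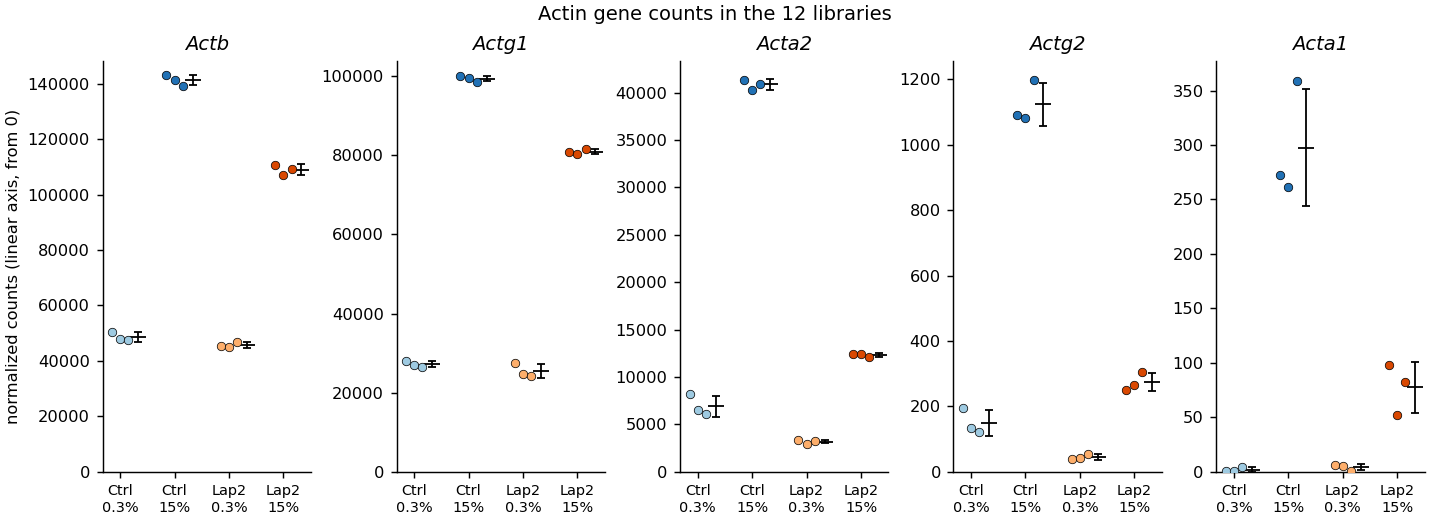
Normalized counts of the 5 tested actin genes in each of the 12 libraries (points) with the mean and SD of each group (n = 3), on linear axes from 0; Ctrl and Lap2 name the siRNA and the percentages the FBS. In each panel the stimulated control libraries are highest, and the Lap2 siRNA libraries in 15% FBS lie between them and the starved libraries.

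The first comparison asked how the actin genes responded to serum in control cells. All 5 tested members rose, where 29.5% of all tested genes changed and 15.6% rose. The response grew from the cytoplasmic to the muscle isoforms, and the median log2 fold change of the 5 was 2.56, against -0.01 for all genes. As in any bulk sample, more cells of a type and more RNA per cell cannot be told apart.

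Actb had 50489, 47915 and 47447 normalized counts in starved and 143170, 141440 and 139320 in stimulated control cells. The groups lay far apart, and the mean rose 2.91-fold. The log2 fold change was 1.54 (standard error 0.06, edgeR adjusted p = 1.5e-21). Actg1 went from 28016, 27049 and 26533 to 99962, 99419 and 98652 normalized counts. Its rise of 3.65-fold (log2 fold change 1.87, standard error 0.06, edgeR adjusted p = 3.8e-23) exceeded that of Actb in these libraries.

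Acta2 went from 8181, 6473 and 6077 normalized counts to 41389, 40296 and 40924. Replicate 1 of the starved control cells was the highest of its group here, and the same library was highest for Actg2. The mean of Acta2 rose 5.91-fold, and its rank by mean count among all genes went from 414 to 38. Actg2 had 194, 134 and 121 normalized counts in starved and 1091, 1081 and 1198 in stimulated cells. It rose 7.50-fold (log2 fold change 2.90, standard error 0.12, edgeR adjusted p = 1.2e-19) from a level much below that of Acta2.

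Acta1 had 1, 1 and 4 counts in starved and 307, 264 and 322 counts in stimulated control cells. This gene, barely detected before serum, had the largest fold change of the 5. The ratio of the summed counts, 893 to 6 and corrected for library size, was 152 with a 95% counting interval of 69.6 to 415. The fitted log2 fold change was 7.17 (standard error 0.35, edgeR adjusted p = 6.7e-18). It depends on the few starting counts and became 8.16 without replicate 3 of the starved cells, which held 4 of the 6. In stimulated cells Acta1 still made up only 0.105% ± 0.0198 (SD, n = 3) of all actin reads.

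The same serum comparison was made in Lap2-depleted cells. All 5 tested members rose here as well, where 33.2% of all tested genes changed and 18.3% rose, and their median log2 fold change was 1.95. Actb rose from 45451, 44909 and 46769 to 110680, 106890 and 109370 normalized counts, or 2.38-fold. Its log2 fold change was 1.25 (standard error 0.06, edgeR adjusted p = 5.5e-19). Actg1 rose from 27477, 24607 and 24320 to 80718, 80384 and 81715, or 3.18-fold (log2 fold change 1.67, edgeR adjusted p = 1.1e-21). No starved library of either gene came near a stimulated one.

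Acta2 had 3331, 2977 and 3217 normalized counts in starved and 12398, 12419 and 12100 in stimulated Lap2-depleted cells, a rise of 3.88-fold. Actg2 rose from 40.4, 40.6 and 54.6 to 251, 265 and 304, or 6.05-fold. The order of the rises among these 4 members was that of control cells. Acta1 had 7, 5 and 1 counts before and 85, 49 and 85 counts after serum. The counting ratio was 17.9, with a 95% interval of 10.3 to 34.2 for counting error only. The log2 fold change of Acta1 was 4.13 (standard error 0.37, edgeR adjusted p = 4.4e-11).

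The next comparison set Lap2 siRNA against control siRNA in 0.3% FBS. Both smooth muscle actins fell and the other 3 tested members did not pass the test, where 36.5% of all tested genes changed (18.6% fell and 17.8% rose). Acta2, at 6077 to 8181 normalized counts in control cells, was at 2977 to 3331 with Lap2 siRNA, which is 45.9% of the control mean. Actg2 went from a range of 121 to 194 to one of 40.4 to 54.6 normalized counts, 30.2% of control. The groups of both genes did not overlap. The log2 fold change of Actg2 was -1.73 (standard error 0.17, edgeR adjusted p = 6.2e-10).

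Actb was at 94.0% of control, with every Lap2 siRNA library below every control library. Its log2 fold change of -0.09 had a 95% confidence interval of -0.20 to 0.02 (edgeR adjusted p = 0.22). Actg1 was at 93.6%, with replicate 1 of the Lap2-depleted cells inside the control range. Its log2 fold change was -0.09 as well (interval -0.21 to 0.02, edgeR adjusted p = 0.22). Both estimates changed sign with scaling to total counts, to 0.021 for Actb and 0.015 for Actg1, both below the median of all genes under that scaling (0.117). Without replicate 1 of the Lap2-depleted cells, Actg1 passed the test with a log2 fold change of -0.14 (edgeR adjusted p = 0.010). Acta1 had 6 counts in control and 13 in Lap2-depleted cells, a ratio of 2.22 with a counting interval of 0.788 to 7.13, so that at this depth no difference was detectable (edgeR adjusted p = 0.29). Its log2 fold change of 1.10 ranged from 0.66 without replicate 1 of the Lap2-depleted cells to 2.10 without replicate 3 of the control cells, and did not pass with any library left out (lowest edgeR adjusted p = 0.11).

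In 15% FBS all 5 tested members were lower with Lap2 siRNA, where 23.4% of all tested genes changed and 12.1% fell, and their median log2 fold change was -1.73 against 0.02 for all genes. The muscle isoforms fell to between 24.3% and 30.1% of control and the cytoplasmic isoforms to between 77.1% and 81.5%. For each member, all 3 Lap2 siRNA libraries lay below all 3 control libraries. How often groups lie apart in this way among all tested genes is not given here, for either medium. Actg2 was at 24.3% of control (log2 fold change -2.03, standard error 0.11, edgeR adjusted p = 4.8e-15). Acta1, at 52.0 to 98.2 against 261 to 359 normalized counts, was at 26.0% of control, with a log2 fold change of -1.94 (standard error 0.20, edgeR adjusted p = 2.1e-09). Acta2 was at 30.1% of control.

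Actb was at 77.1% of control (log2 fold change -0.37, standard error 0.05, edgeR adjusted p = 2.5e-06) and Actg1 at 81.5% (log2 fold change -0.30, standard error 0.06, edgeR adjusted p = 0.00018). Among the 10449 genes that averaged 100 or more normalized counts, Actg2 ranked 5th and Acta2 13th by how far they fell. Actb and Actg1 were 1185th and 1591st in this order. In counts the differences of Actb and Acta2 were of like size, since the mean of Actb went from 141310 to 108980 and that of Acta2 from 40870 to 12306 normalized counts.

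**Figure D3:**
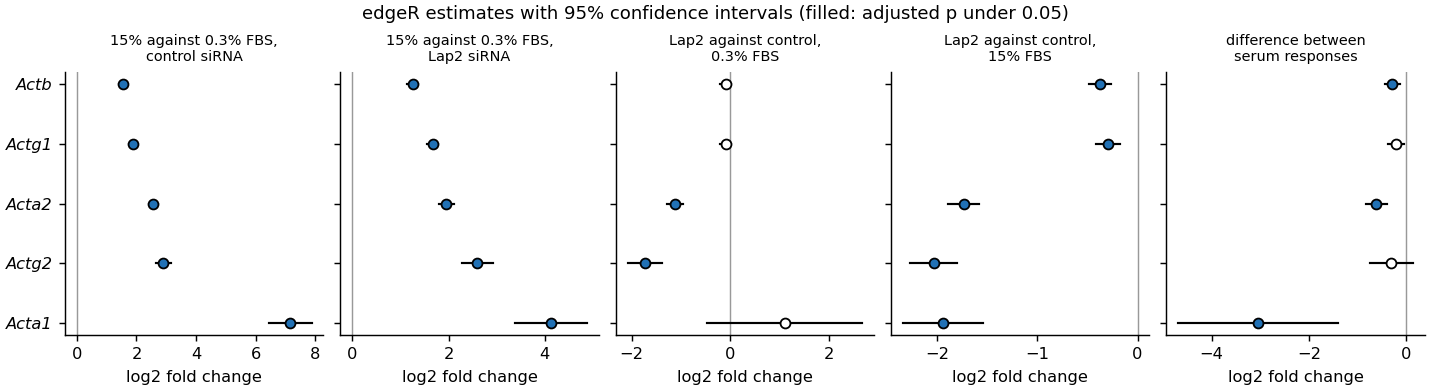
Fitted log2 fold changes of the 5 tested actin genes in the 5 comparisons, with 95% confidence intervals as lines; filled points passed an adjusted p of 0.05 and each panel has its own axis. In 0.3% FBS only Acta2 (-1.12) and Actg2 (-1.73) passed, and in 15% FBS all 5 lay below 0.

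Whether the serum response itself differed between the siRNAs was tested by the interaction term. It was negative for all 5 tested members and passed the test for Acta1, Acta2 and Actb, where it was lower for 6.51% and higher for 7.09% of all tested genes. For Acta1 it was -3.04 on the log2 scale (standard error 0.81, edgeR adjusted p = 0.0089). Without replicate 1 of the starved Lap2-depleted cells, which held 7 of their 13 counts, it was -2.62 and no longer passed (edgeR adjusted p = 0.066). Without replicate 3 of the starved control cells, which held 4 of their 6 counts, it was -4.05 (edgeR adjusted p = 0.0047). For Acta2 the interaction was -0.61 (standard error 0.11, edgeR adjusted p = 8.1e-05) and for Actb it was -0.29 (standard error 0.08, edgeR adjusted p = 0.0099). Tmpo, the siRNA target, itself had an interaction of -0.79 (edgeR adjusted p = 3.0e-06). Its part in the actin differences was not tested.

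Actg1 had an interaction of -0.20 (95% confidence interval -0.37 to -0.03, edgeR adjusted p = 0.11), so that a difference was not shown by this test, although it passed with DESeq2 (-0.23, adjusted p = 0.013). It also passed in edgeR without replicate 1 (-0.17, adjusted p = 0.031) or replicate 3 (-0.26, adjusted p = 0.046) of the starved Lap2-depleted cells. Actg2 had -0.30 (interval -0.74 to 0.14, edgeR adjusted p = 0.43). For Actg2, the gene with the largest fall in 15% FBS, the level was already lower before serum, and the interval of the interaction leaves room for both no change and a change larger than that of Actb.

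The make-up of the actin reads was then followed, since a gene's share of the actin reads does not depend on scaling between libraries. The share does depend on how reads that fit several places were counted, which is least certain for Actg1. The 6 genes together took 0.408% ± 0.0174 (SD, n = 3) of the counts in starved and 1.21% ± 0.0200 in stimulated control cells. With Lap2 siRNA they took 0.395% ± 0.00898 and 0.917% ± 0.00645. On this scale, which amounts to scaling to total counts, the total was near that of control before serum and lower after it. Actb made up 58.7%, 49.9%, 61.5% and 53.8% of the actin reads in starved control, stimulated control, starved Lap2-depleted and stimulated Lap2-depleted cells. Actg1 made up 32.8%, 35.1%, 34.2% and 40.0% in the same order.

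Acta2 held 9.42%, 7.94% and 7.58% of the actin reads in starved control cells and 14.5%, 14.3% and 14.6% after serum. With Lap2 siRNA it held 4.37%, 4.10% and 4.33%, and 6.07%, 6.21% and 5.94% after serum. No library of any group overlapped with another group, and stimulated Lap2-depleted cells had a smaller Acta2 share than starved control cells. The share rose by 6.13 percentage points with serum in control cells and by 1.81 in Lap2-depleted cells. The difference between Lap2 and control siRNA was -4.05 points in 0.3% FBS and -8.37 points in 15% FBS. Each of these 4 differences had p = 0.1 in a 2-sided exact permutation test, the smallest that 3 libraries against 3 allow (0.11 adjusted over the 12 ratio comparisons made here).

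The ratio of Actg1 to Actb counts was -0.84 ± 0.01 on the log2 scale (SD, n = 3) in starved and -0.51 ± 0.01 in stimulated control cells. Serum raised it by 0.33 in control and by 0.42 in Lap2-depleted cells, without overlap between groups (exact permutation p = 0.1 each). With Lap2 siRNA in 0.3% FBS the libraries spread from -0.94 to -0.73, across the control values. The difference from control of -0.0081 had an exact permutation p = 0.9. In 15% FBS the ratio was -0.43 ± 0.02 with Lap2 siRNA, 0.079 above control, with no overlap (exact permutation p = 0.1).

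**Figure D4:**
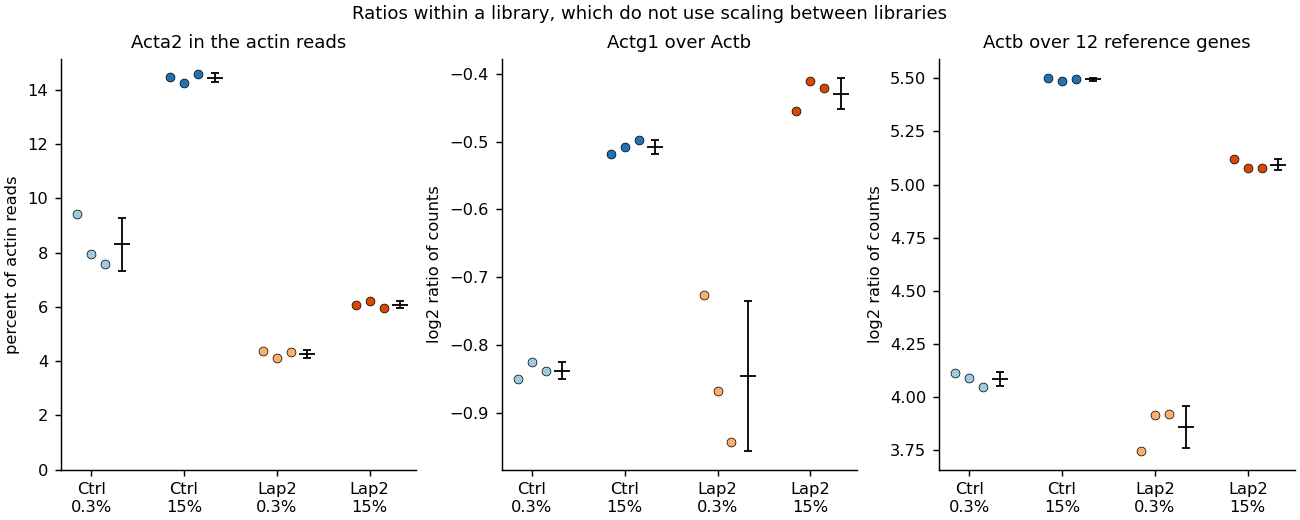
Share of Acta2 in the actin reads (percent), log2 ratio of Actg1 to Actb counts, and log2 ratio of Actb to the geometric mean of 12 reference genes, for each library (points) with the mean and SD of each group (n = 3); the middle and right axes do not start at 0. The Acta2 share is 14.4% in stimulated control cells and 6.08% in stimulated Lap2-depleted cells.

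Actb is itself often used to normalize expression measurements, so it was set against 12 common reference genes, all of which passed the filter. The log2 ratio of Actb to their geometric mean was 4.11, 4.09 and 4.05 in starved and 5.50, 5.49 and 5.50 in stimulated control cells. In Lap2-depleted cells it was 3.75, 3.92 and 3.92 before and 5.12, 5.08 and 5.08 after serum. Actb thus stood 1.41 higher with serum in control and 1.23 higher in Lap2-depleted cells. The difference between Lap2 and control siRNA was -0.22 in 0.3% FBS and -0.40 in 15% FBS. None of these groups overlapped (exact permutation p = 0.1 each, the smallest possible). Against Gapdh alone, a glycolytic enzyme gene, the last of these differences was -0.25.

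The reference genes were not uniform. Their median log2 fold change was 0.06 and -0.04 for serum (control and Lap2 siRNA) and 0.14 and 0.10 for Lap2 siRNA (0.3% and 15% FBS). Gapdh did not pass the test in any of these 4 comparisons (log2 fold changes of -0.14 to 0.08). Pgk1, another glycolytic enzyme gene, fell with Lap2 siRNA in 0.3% FBS (-0.47) and in 15% FBS (-0.72).

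Among the regulators of actin genes, 6 of 7 listed genes (SRF and its coactivators) were tested; Myocd, the muscle coactivator, was the exception. In control cells serum raised Srf itself with a log2 fold change of 3.75, and Elk1, Elk3 and Elk4, the ternary complex factors, also rose (0.81, 0.27 and 0.73). Mrtfa and Mrtfb, which encode the MRTFs, fell (-0.23 and -0.33). In 0.3% FBS only Elk3 passed the test between the siRNAs (-1.06), whereas Srf was at 0.03. In 15% FBS 3 fell, namely Elk3 (-0.82), Srf (-0.59) and Elk1 (-0.35). Of all tested genes, 18.6% fell in 0.3% FBS and 12.1% in 15% FBS. The interaction was lower for 2 of the 6 and higher for 0, against 6.51% lower and 7.09% higher among all tested genes. It was -0.62 for Srf (edgeR adjusted p = 2.2e-06), close in size to that of Acta2, and -0.34 for Elk1 (edgeR adjusted p = 0.045). Mrtfa at -0.09 did not pass.

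A list of 30 other contractile and cytoskeletal MRTF/SRF targets was compared with the actins. With serum in control cells, 28 of the 30 rose and 0 fell, with a median log2 fold change of 1.53. Of all tested genes, 15.6% rose and 13.9% fell. The largest rises were those of Fhl1 (3.77), a LIM-domain protein, and Lmod1 (3.56), a leiomodin that nucleates actin filaments. Cald1, the gene of caldesmon, at 0.06, and Myl6, a myosin light chain, at 0.20 did not pass. In Lap2-depleted cells 27 rose and 0 fell (median 1.25), where 18.3% of all tested genes rose and 14.9% fell.

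With Lap2 siRNA in 0.3% FBS, 12 of the 30 fell and 7 rose (median -0.15), where 18.6% of all tested genes fell and 17.8% rose. Tagln, which encodes the actin-binding transgelin, fell most (-1.87), and Fhl2, another LIM-domain gene, rose by 0.91. In 15% FBS 28 fell and 0 rose (median -0.57), where 12.1% of all tested genes fell and 11.4% rose. Fhl1 fell most (-2.37), and it was the only one of the 30 that fell further than Acta1, Acta2 and Actg2. The actin-binding genes Cfl1 (0.09) and Pfn1 (-0.09), of cofilin and profilin, did not pass. The interaction was lower for 14 and higher for 1, with a median of -0.28, against 6.51% lower and 7.09% higher among all tested genes. The higher one was Tagln (0.62), opposite in sign to Acta2 (-0.61).

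**Figure D5:**
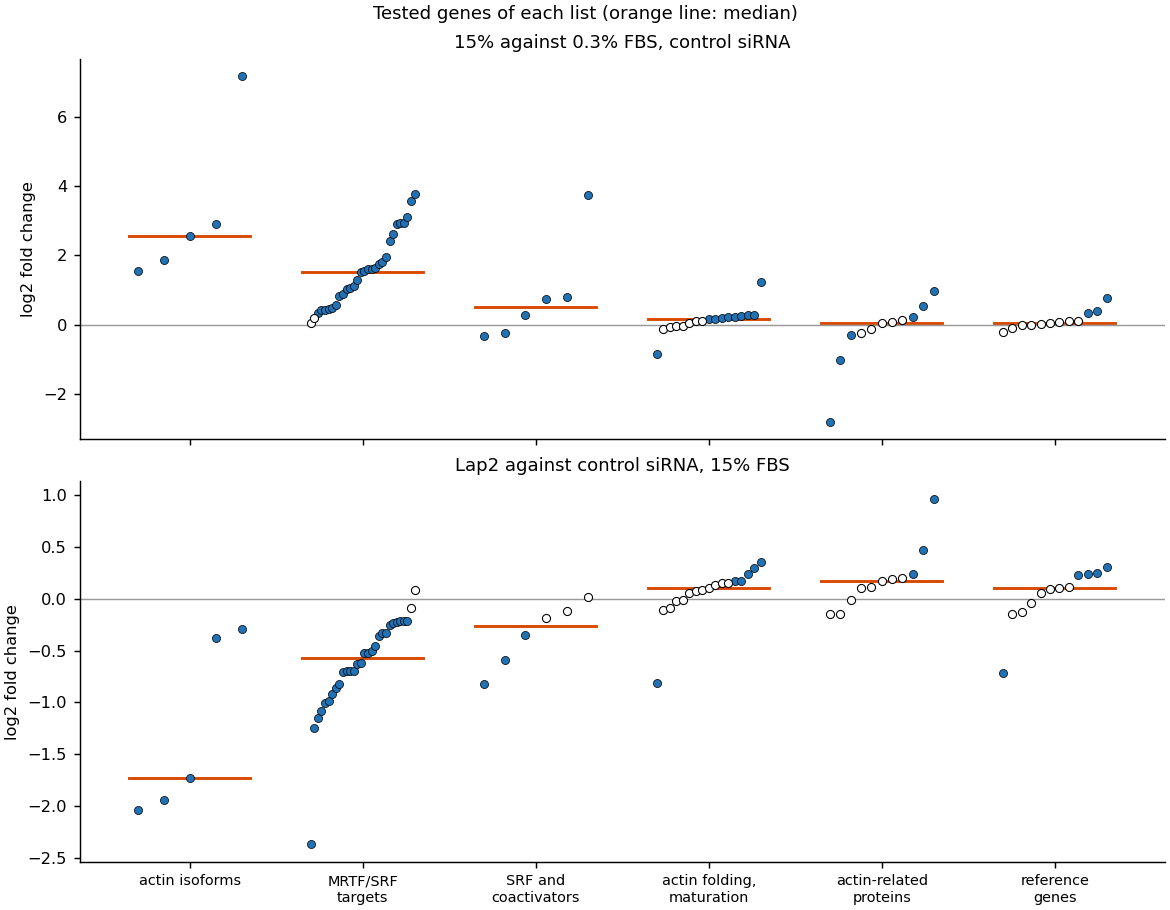
Log2 fold changes of the tested genes of each list for serum in control cells (top) and for Lap2 siRNA in 15% FBS (bottom); filled points passed an adjusted p of 0.05 and the orange line is the list's median. The 5 actins have medians of 2.56 and -1.73, the 30 MRTF/SRF targets of 1.53 and -0.57, and the 12 reference genes of 0.06 and 0.10.

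New actin chains are folded by prefoldin and the CCT chaperonin and then processed at their N-terminus, and 17 of 18 listed genes for these steps were tested (Actmap had no match). In control cells 9 rose and 1 fell with serum, with a median log2 fold change of 0.16. Of all tested genes, 15.6% rose and 13.9% fell. Pdcl3, a phosducin-like cochaperone of CCT, rose most (1.24), and Naa80, the actin N-acetyltransferase, fell (-0.86). In Lap2-depleted cells 6 rose and 2 fell (median 0.11), where 18.3% of all tested genes rose and 14.9% fell. With Lap2 siRNA, 17.8% of all tested genes rose and 18.6% fell in 0.3% FBS, and 11.4% rose and 12.1% fell in 15% FBS. Of the 17, 6 rose and 2 fell in 0.3% FBS (median 0.03) and 5 rose and 1 fell in 15% FBS (median 0.10). Pdcl3 was the one that fell in both (-1.05 and -0.82), while Pfdn6, a prefoldin subunit, rose by 0.55 and 0.35. Setd3, the actin histidine methyltransferase, was at -0.01 in both. The interaction passed for 1 of 17, the prefoldin subunit Pfdn5 (0.41), against 13.6% of all tested genes.

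The actin-related proteins share the actin fold but do not form the same filaments, and 11 of 18 listed genes were tested. With serum in control cells 3 rose and 3 fell (median 0.07), where 15.6% of all tested genes rose and 13.9% fell. Actr3 and Actr2, the ARP3 and ARP2 subunits of the complex that branches filaments, rose by 0.98 and 0.55, and Actrt3 (-2.81) and Actr3b (-1.01), an ARP3 paralog, fell. In Lap2-depleted cells 3 rose and 1 fell (median -0.12), where 18.3% of all tested genes rose and 14.9% fell. With Lap2 siRNA, 17.8% of all tested genes rose and 18.6% fell in 0.3% FBS, and 11.4% rose and 12.1% fell in 15% FBS. Of the 11, 4 rose and 0 fell in 0.3% FBS (median 0.14), and 3 rose and 0 fell in 15% FBS (median 0.17). Actr3b had the largest change in 15% FBS (0.96). The interaction passed for 0 of the 11, against 13.6% of all tested genes. Actr2 and Actr3 were at -0.15 each in 15% FBS and did not pass. In edgeR, their adjusted p-values were 0.11 and 0.074.

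Across the 12 libraries, log2 CPM of the 5 tested members rose and fell together, with Pearson's r from 0.85 (Acta1 with Actg2) to 0.996 (Actb with Actg1). Acta2 and Actg2 had r = 0.995 with each other and 0.879 to 0.922 with Actb and Actg1. The 12 points share 4 conditions and the same libraries, so these values describe the group pattern. Among 10445 other genes that averaged 100 or more normalized counts, the pattern most like that of Actb was shown by Klf6 (r = 0.998), Inhba and Ppp1r15b (0.997 each). For Actg1 it was shown by Bcl10 (0.998), Srf and Tubb6 (0.997 each). For Acta2 they included Dmtf1 (0.995) and Arhgap29 (0.992), and for Actg2 they were Hmgcs1 (0.993), Slc31a1 (0.991) and Rdh11 (0.990). For Acta1 they were Bag2 (0.987), Mfsd14a and Nipa2 (0.986 each). The size of the changes was not alike: Dmtf1 rose by 0.61 with serum in control cells, where Acta2 rose by 2.56 on the log2 scale.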

How the data were processed

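The authors deposited unnormalized gene counts, made from rRNA-depleted, directional libraries by alignment to mm10 with TopHat2 (Chipster, default settings) and counting with HTSeq. Tool versions, the annotation, strand setting and handling of multiply aligned reads are not given in the sources used here. The authors compared conditions with DESeq. Counts were analysed here in R 4.3.3 with edgeR 4.0.16 (TMM, glmQLFit and glmQLFTest, 1 mean per group, Benjamini-Hochberg adjustment over the 18668 genes above 1 count in 3 or more libraries). RPKM used GENCODE M21 exonic lengths. The order of the members by RPKM was the same with the length of the longest coding transcript. How reads that fit several places affect this order was not tested. Shares and ratios were compared by exact permutation over libraries in Python 3.11.15 (scipy 1.17.1). The edgeR step was tested on simulated data. Total counts of 18026298 to 26265253 gave standard errors of 0.05 to 0.08 on the log2 scale for Actb, Actg1 and Acta2 between groups. Promoters came from the RefSeq table (GRCm38.p6), coding sequences from GENCODE M21. Alternatives were DESeq2 1.42.0, other scalings and filters, library sizes without actin counts, fits of the compared groups, a replicate block and leaving out each library. Named genes are the members, Tmpo, listed genes with the largest and smallest changes, and the 3 genes most like each member (1 of these for Acta2 is not reported here); Cald1, Myl6, Cfl1, Pfn1, Pfdn5, Setd3, Actr2, Pgk1 and the pseudogenes were named after their values were seen. The members and lists were chosen with earlier results of these data known.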

Additional observations from a re-analysis of the deposited data

Results flagged for a closer look

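The serum response differed between the siRNAs, by the interaction term of edgeR's quasi-likelihood test, for 3 of the 5 tested actin genes. The difference was -3.04 on the log2 scale for Acta1 (standard error 0.81), which is the gene with the fewest counts. Its adjusted p was 0.0089, and 0.066 without replicate 1 of the starved Lap2-depleted cells. The difference was -0.61 for Acta2 and -0.29 for Actb. In each of the 3, the rise with serum was the smaller one in Lap2-depleted cells. Actg1 (-0.20, adjusted p = 0.11) was not among them in edgeR but passed with DESeq2 (-0.23, adjusted p = 0.013).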

How the results depend on the processing

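Over 21 or 22 alternatives per comparison (20 or 21 for Acta1, which a stricter filter removed), 533 of 540 fitted values of single members kept their direction and their side of the threshold. The 540 include fits without a library outside the groups compared. Such fits could move a value only through the scaling and the shared spread, so this tally is not one of independent checks. Scaling to total counts reversed Actb (0.021) and Actg1 (0.015) for Lap2 siRNA in 0.3% FBS. The other 5 exceptions were Actg1 without a starved Lap2-depleted library or with DESeq2, and the Acta1 interaction without replicate 1 of that group. The difference in the Actg1 to Actb ratio in 0.3% FBS ran from -0.068 to 0.041 when each library was left out, with 0.0030 and 0.041 (reversed) without replicates 2 and 3 of the Lap2-depleted cells. The cause was not tested. Among all tested genes, scaling to total counts changed the split of higher to lower calls from 2915 and 2597 to 1632 and 5847 (serum, control siRNA), from 3420 and 2777 to 1658 and 5951 (serum, Lap2 siRNA), from 3330 and 3480 to 4692 and 2638 (Lap2 siRNA, 0.3% FBS) and from 2125 and 2250 to 3471 and 1678 (15% FBS). Upper-quartile scaling gave 2183 and 3878, and 2383 and 3942, for serum. The lower interaction calls were 1216, and 1975 without replicate 1 of the starved Lap2-depleted cells. The replicate numbers follow the order of the labels, so only this matching of libraries was checked. Over 18 same-numbered pairs, deviations from the group means correlated at -0.122 to 0.099. Over the 36 other pairs they correlated at -0.211 to 0.216. Pairing by another matching was not tested. With the replicate block, 5, 5, 2, 5 and 3 members were called in the 5 comparisons, as without it. The 3 libraries per group limit exact tests to p = 0.1, and the few Acta1 counts in 0.3% FBS limit its fold changes.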
